A study of Homo sapiens with 105 samples.

Results

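Collagen genes were taken as every gene whose symbol is COL, a number, A and a number, with nothing more, in the result tables deposited for the RNA sequencing of the series. There were 44 of them among the 26330 gene symbols of each of 5 tables, and the symbols, not any measured value, chose them. They fall into 11 fibrillar, 6 basement membrane and 10 fibril-associated (FACIT) genes and 17 others. A gene was described where its mean normalized count (read count divided by the library's size factor, averaged over all libraries of a table) was at least 10, which 30 genes reached in some table, 18 in every table and 14 in none. Of the 30, 8 were fibrillar, 5 basement membrane, 6 FACIT and 11 other.

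The study asks how the C134W mutant of the transcription factor FOXL2, which marks adult granulosa cell tumors, acts with the SMAD proteins of transforming growth factor beta (TGF) signaling. HGrC1 is a human granulosa cell line that here carries an empty vector (EV), a vector for wild-type FOXL2 (WT) or one for C134W FOXL2. Each of the 3 lines was kept without TGF or stimulated with it, giving 6 groups of 3 libraries. KGN, a line from a human granulosa cell tumor that is heterozygous for C134W and received no vector, was sampled with TGF (5 libraries in the labels) and without (4). The sources used here give no dose or time of TGF and no promoter for the vectors, nor do they say whether a transduced line is 1 clone. They also do not say that the replicates are separate cultures, and the p-values then cover the spread between these libraries alone, which may be technical. The 5 comparisons were C134W against WT and C134W against EV, each without and with TGF, and treated against untreated KGN cells. The tables hold group comparisons and no value for a single library, so group values stand in for library values throughout. Tables with the same TGF state share their C134W libraries, and their values are given side by side only.

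Collagens are secreted proteins whose chains wind around each other into rope-like helices. Fibrillar collagens (types I, II, III, V, XI, XXIV and XXVII) assemble into the fibrils that give stroma its tensile strength, and type IV collagen forms the sheet-like net of basement membranes, which in the ovary separates granulosa cells from the theca. FACIT collagens sit on the surface of fibrils, and the others include beaded filaments (type VI), anchoring fibrils (type VII), hexagonal nets (type VIII) and collagens that span the cell membrane. TGF signaling through SMAD proteins is known as a strong inducer of type I collagen and of other matrix genes in fibroblasts.

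FOXL2 itself was higher in C134W than in EV by 6.27 ± 0.20 without TGF and 6.16 ± 0.24 with TGF (log2 fold change ± the standard error of the authors' deposited table, DESeq2's Wald test with Benjamini-Hochberg adjustment, adjusted p = 8.19e-218 and 2.39e-144). Against WT it was -0.13 ± 0.06 without TGF (adjusted p = 0.0902) and -0.27 ± 0.11 with TGF (adjusted p = 0.0339). Of 15 granulosa markers, 9 to 11 had a mean of at least 10 in each table. In HGrC1 this count includes FOXL2, which the WT and C134W vectors carry, and CYP19A1 reached 10 only with TGF (34.8 and 40.0). The granulosa factor GATA4 had a mean between 1097 and 1966. FSHR, the receptor for follicle-stimulating hormone, stayed below 1 in every table, and NR5A1, a steroidogenic factor, was below 1 in the HGrC1 tables against 829.9 in KGN. Of 12 stroma and theca markers 6 or 7 reached 10, with TCF21 at 0 in every table. NR2F2 had the highest mean of the 12 in each HGrC1 table (2257 to 3663), and ACTA2 had it in KGN (6961). PDGFRB ran from 188.2 to 1427 and LUM from 0.98 to 1639. Of 10 endothelial and immune markers 1 to 3 reached 10, with a summed mean of 59.92 to 162.9. Library depth, estimated from genes with a single read, ran from 5490260 to 19648522 reads in the HGrC1 tables and from 3592601 to 16539328 in KGN. The KGN table behaved as 11 libraries, 6 of them without TGF, where the labels list 4.

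The stretches before the genes that the results turn on are shown first. The coordinates and bases are RefSeq's on GRCh38.p14, the build (hg38) that the submitters' processing notes name. The genes for the main pair of basement membrane chains, COL4A1 on the minus strand and COL4A2 on the plus strand of chromosome 13, start head to head with 126 bases between them. COL4A6 and COL4A5 do so on chromosome X with 379 bases between their starts. The first 2 lines show the shared stretch of the first pair (chr13:110307158-110307283, plus strand) and the 250 bases before COL4A5 within that of the second (chrX:108439588-108439837, plus strand). COL12A1 and COL16A1, FACIT genes at opposite ends of the comparison of C134W with EV under TGF, follow with the 250 bases before each start (chr6:75206054-75206303 and chr1:31704018-31704267, both on the minus strand and written on it).
between COL4A1 and COL4A2: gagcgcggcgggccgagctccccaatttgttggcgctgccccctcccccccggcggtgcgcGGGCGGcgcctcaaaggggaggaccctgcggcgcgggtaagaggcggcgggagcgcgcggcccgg
before COL4A5: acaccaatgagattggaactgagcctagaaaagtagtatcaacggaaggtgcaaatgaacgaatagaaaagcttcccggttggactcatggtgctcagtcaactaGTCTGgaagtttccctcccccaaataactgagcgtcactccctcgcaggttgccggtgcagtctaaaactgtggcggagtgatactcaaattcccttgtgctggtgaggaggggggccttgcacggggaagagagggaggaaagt
before COL12A1: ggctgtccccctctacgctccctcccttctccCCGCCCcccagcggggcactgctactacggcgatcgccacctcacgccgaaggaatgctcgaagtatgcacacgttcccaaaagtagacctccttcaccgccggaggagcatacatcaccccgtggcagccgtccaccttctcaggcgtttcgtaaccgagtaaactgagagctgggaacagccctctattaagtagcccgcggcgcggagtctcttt
before COL16A1: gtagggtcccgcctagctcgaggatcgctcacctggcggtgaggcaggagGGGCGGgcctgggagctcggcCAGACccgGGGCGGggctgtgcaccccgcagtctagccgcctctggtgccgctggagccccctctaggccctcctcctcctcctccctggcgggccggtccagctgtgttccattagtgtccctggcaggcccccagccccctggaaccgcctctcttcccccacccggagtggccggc
Capitals mark every match to the SMAD box CAGAC or to the GC box, whose letters are GGGCGG, and the reverse complement of each was marked too. The forkhead core, TAAACA, and the TATA box, TATAAA, were searched on both strands in the same way and were not in these 4 stretches. A forkhead core can run into a SMAD box through its last letters, and matches were counted separately for each motif. A SMAD box stood once before COL4A5 and once before COL16A1, and a GC box once between COL4A1 and COL4A2, once before COL12A1 and 2 times before COL16A1. RefSeq windows existed for 32 of the 44 collagen genes (44 windows of 250 bases). The SMAD box was in 16 of them (36.4%, against 38.0% of 35116 windows of all genes) and the forkhead core in 3 (6.82% against 11.0%). The TATA box was in 8 (18.2% against 10.7%) and the GC box in 24 (54.5% against 42.6%). These are letter matches in short windows and say nothing on binding.

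Collagen transcripts made up 1.16% of all normalized counts in EV without TGF, 1.01% in WT and 1.36% in C134W. With TGF the shares were 3.05% in EV, 1.91% in WT and 2.27% in C134W, and KGN was at 2.23% without and 3.13% with it. These group values were computed from the means and fold changes of the authors' deposited tables and carry no error of their own. Without TGF the share was highest in C134W, with TGF it was highest in EV, and in all 4 kinds of cells it was higher with TGF than without. The 4 genes with the most counts held 78.1% (KGN) to 88.2% (C134W and WT with TGF) of the family's counts in a table, so the share follows few genes. A count grows with the length of a transcript as well as its number, so levels are compared here between groups and not between genes.

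**Figure D1:**
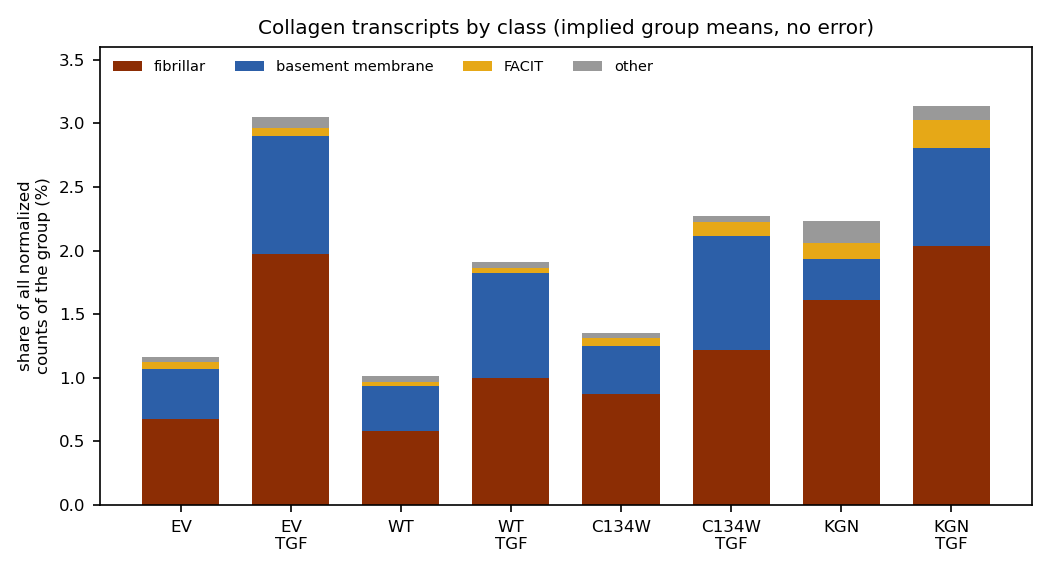
Share of all normalized counts (%) that fell on collagen genes in each of the 8 groups, stacked by class; bars are group values implied by the deposited means and fold changes, with no error. The bar of EV cells goes from 1.16% without TGF to 3.05% with TGF, and fibrillar genes take the largest piece in every group.

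Without TGF, 9 of the 21 collagen genes tested were higher in C134W than in WT and 1 was lower, with a threshold of 0.05 on the adjusted p of the DESeq2 test that the authors ran. Of all genes with a mean of at least 10, 10.9% were higher and 11.5% lower. COL9A1 had a mean of at least 10 there but no adjusted p. The median log2 fold change of the 21 was 0.22, against 0.00 over all genes tested. With TGF, 10 of 23 were higher and 3 lower (19.0% and 19.3% of all genes), with a median of 0.25. Against EV without TGF, 9 of 22 were higher and 3 lower (14.1% and 12.4% of all genes), with a median of 0.16. Against EV with TGF the balance was the other way: 5 of 24 were higher and 10 lower (25.6% and 23.1% of all genes), with a median of -0.33, and the share of higher genes was near that of all genes. In KGN, 9 of 26 were higher with TGF and 13 lower (23.5% and 23.3% of all genes), with a median of -0.39.

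Other long transcripts moved in part with these medians. Of 56 genes with long mRNAs that encode no collagen, listed after the data were seen, 39 were higher in C134W than in WT without TGF and 2 lower (median 0.22). With TGF 29 were higher and 3 lower (0.18). Against EV with TGF 1 was higher and 27 lower (-0.20), against EV without TGF 4 and 8 (-0.02), and in KGN 6 and 19 (-0.07). Of 83 cytosolic ribosomal protein genes, whose mRNAs are short, 1 was higher and 47 lower than in WT without TGF (median -0.14). With TGF these counts were 1 and 28 (-0.13). Against EV 2 were higher and 39 lower without TGF (-0.18), and 4 and 54 with it (-0.21). In KGN 17 were higher and 1 lower (0.07). Among all genes 10.9% were higher and 11.5% lower than in WT without TGF, and 19.0% and 19.3% with it. Against EV the shares were 14.1% and 12.4% without TGF and 25.6% and 23.1% with it, and in KGN 23.5% and 23.3%. The part of the long and the short mRNAs in the collagen counts was not tested. Collagen differences are given also relative to the medians of the long mRNAs where that changed the call or turned a direction. Each median was subtracted as a fixed value and each gene kept its own standard error. The adjusted p-values relative to the long mRNAs thus leave out the error of the median.

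**Figure D2:**
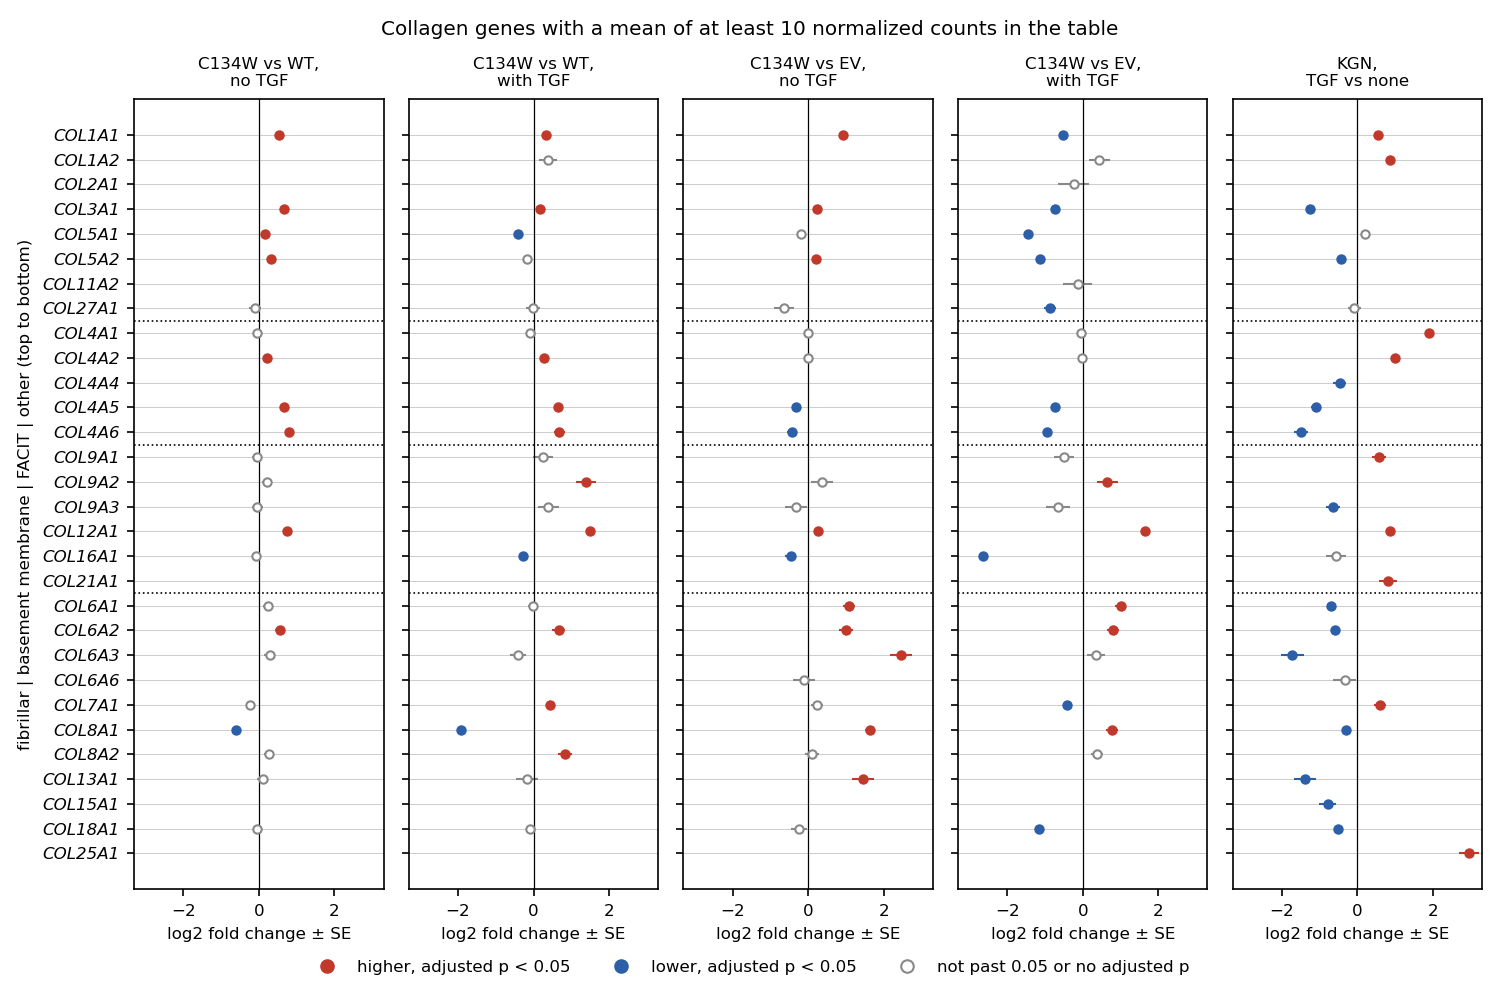
Log2 fold change ± standard error (x axis) of each of the 30 collagen genes (y axis, by class) in the 5 comparisons, as the authors deposited them; filled points passed an adjusted p under 0.05, and a gene is left out of a panel where its mean was under 10. In the panel of C134W against EV with TGF, 5 fibrillar genes lie to the left of 0 and none to the right among the filled points.

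Most fibrillar genes were higher in C134W than in WT and EV without TGF, and most were lower than in EV with it. Without TGF, 4 of 5 fibrillar genes tested were higher in C134W than in WT and 3 of 5 higher than in EV, and none was lower (10.9% and 14.1% of all genes were higher). With TGF, 2 of 6 were higher and 1 lower than in WT (19.0% and 19.3% of all genes), and 5 of 8 were lower than in EV with none higher (23.1% and 25.6%). COL1A1 (chr17:50184101-50201631), the alpha-1 chain of type I collagen, had implied levels of 15965 normalized counts in EV, 21300 in WT and 30715 in C134W without TGF, and of 116910, 65221 and 81789 with TGF. C134W was thus the highest of the groups without TGF and lay between WT and EV with it. The authors' deposited tables give COL1A1 as 0.52 ± 0.04 against WT and 0.92 ± 0.09 against EV without TGF (adjusted p = 1.41e-44 and 3.09e-22). With TGF the authors' deposited tables give 0.32 ± 0.07 against WT and -0.51 ± 0.06 against EV (adjusted p = 3.1e-05 and 1.64e-18). Relative to the long mRNAs its difference from WT with TGF was 0.15 ± 0.07 and no longer passed (adjusted p = 0.0783).

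COL3A1 (chr2:188974373-189012746), the type III chain that mixes with type I in soft stroma, followed the same order against EV. Its implied levels were 35769 in EV, 26649 in WT and 42501 in C134W without TGF, and 52552, 27701 and 31317 with it. WT was the lowest group in both states. In the authors' deposited tables it was 0.67 ± 0.03 against WT and 0.25 ± 0.05 against EV without TGF (adjusted p = 6.11e-131 and 5.95e-05), then 0.18 ± 0.05 and -0.74 ± 0.04 with TGF (adjusted p = 0.00176 and 1.34e-64). The value against WT with TGF was 0.00 relative to the long mRNAs, where its sign turned (adjusted p = 0.997).

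Type V collagen, which joins type I fibrils and limits their thickness, showed the widest gap from EV among fibrillar genes with TGF. COL5A1 (chr9:134641803-134844843) had implied levels of 9316 in EV, 7213 in WT and 8119 in C134W without TGF and of 22154, 10717 and 8041 with TGF, so that the C134W level was nearly the same in both states. It was -1.46 ± 0.06 against EV with TGF (adjusted p = 5.17e-137) and -0.19 ± 0.10 without (adjusted p = 0.131) in the authors' deposited tables. Against WT, COL5A1 was 0.17 ± 0.03 without TGF (adjusted p = 1.25e-05) and -0.41 ± 0.07 with TGF (adjusted p = 4.2e-08). The first of these was -0.05 relative to the long mRNAs (adjusted p = 0.198). Its partner COL5A2 (chr2:189031898-189441111) had implied levels of 3630, 3369 and 4188 in EV, WT and C134W without TGF and of 5904, 3010 and 2688 with it. COL5A2 was -1.13 ± 0.05 against EV with TGF (adjusted p = 9.52e-98) and 0.20 ± 0.06 without (adjusted p = 0.0065) in the authors' deposited tables. Set against WT, COL5A2 was 0.31 ± 0.04 without TGF (adjusted p = 1.61e-15) and -0.16 ± 0.07 with it (adjusted p = 0.0518), in the authors' deposited tables. The second value was -0.34 relative to the long mRNAs and passed (adjusted p = 4.59e-06). COL27A1, a fibrillar gene of cartilage with means of 22.4 to 124.9 in HGrC1, was -0.87 ± 0.16 against EV with TGF (adjusted p = 5e-07) and passed no other test in the authors' deposited tables.

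COL1A2 (chr7:94394895-94431227), whose chain joins pairs of COL1A1 chains in the usual form of type I collagen, had means between 9.22 and 41.3 in the HGrC1 tables and of 11012 in KGN. COL1A1 means in the same tables were 23312 to 115118 and 117662. The lines thus lay further apart in COL1A2 than in COL1A1. Without TGF the implied COL1A1 levels were apart too, at 97119 in KGN against 15965, 21300 and 30715 in EV, WT and C134W. These scales were normalized separately, from lines that the titles place in different experiments, so no gap between the lines carries a test. Without TGF the HGrC1 means of COL1A2 were under 10 (9.22 and 9.75). In the HGrC1 comparisons with TGF it did not pass the test of the authors' deposited tables. Its largest value there was 0.44 ± 0.28 against EV (adjusted p = 0.212), which was 0.64 relative to the long mRNAs (adjusted p = 0.0465). In KGN it was 0.86 ± 0.06 (adjusted p = 6.38e-48), from an implied 8005 without TGF to 14621 with it. COL1A1 in KGN was 0.55 ± 0.06 (adjusted p = 3.41e-19; 97119 to 142312) in the authors' deposited table. There COL3A1 fell by 1.25 ± 0.07 (adjusted p = 9.86e-76; 14895 to 6217) and COL5A2 fell by 0.44 ± 0.03 (adjusted p = 4.13e-35; 8667 to 6378). COL5A1 was 0.19 ± 0.10 there and did not pass (adjusted p = 0.0979), though relative to the long mRNAs it did at 0.27 (adjusted p = 0.0148).

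The plot of implied levels shows the order of the groups for 12 genes. Over the 16 genes with a mean of at least 50 in all HGrC1 tables, the implied log2 ratio of TGF to no TGF had a median of 0.63 in EV (12 above 0, 4 below), 0.09 in WT (10 and 6) and 0.06 in C134W (8 and 8). The ratios rest on a common scale that takes the median gene as unchanged by TGF, and they have no test. In EV cells COL16A1 was at 9.24 times its level without TGF, COL7A1 at 8.16 times and COL1A1 at 7.32 times. The same genes stood at 2.32, 3.07 and 3.06 times in WT and at 2.03, 5.06 and 2.66 times in C134W.

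**Figure D3:**
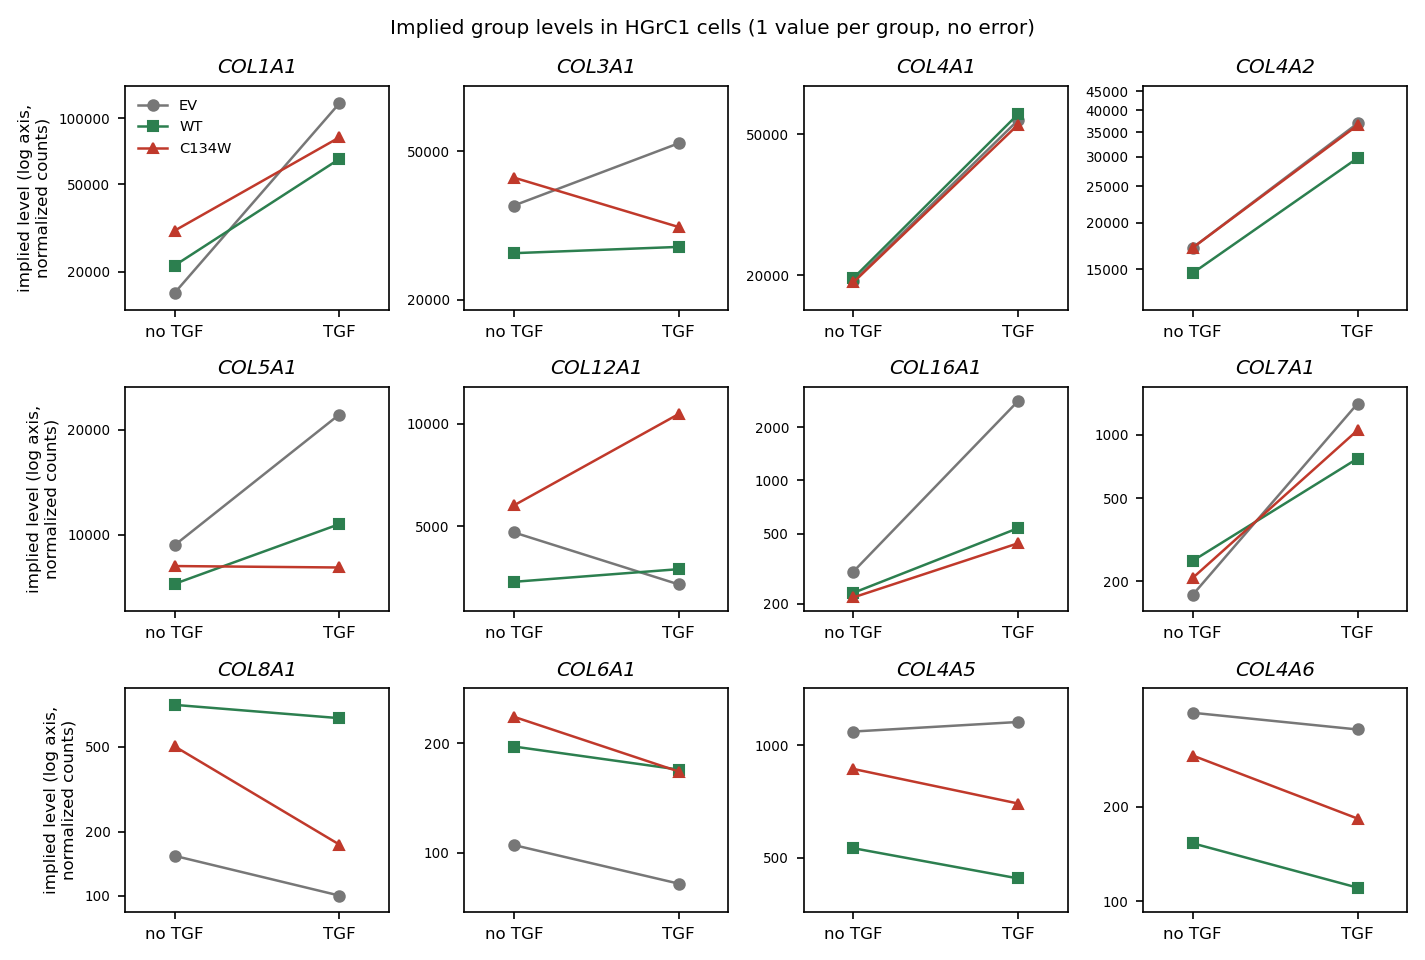
Implied group level (normalized counts, log axis) of 12 collagen genes in HGrC1 cells without and with TGF, 1 point per group for EV, WT and C134W, with no error because the tables hold group values only. COL4A1 lines lie on each other (19102 to 19629 without TGF), while EV lies above both FOXL2 groups with TGF for COL5A1 (22154) and COL16A1 (2817).

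The basement membrane genes split into a pair whose deposited differences between the HGrC1 lines were 0.29 or less and a pair that was lower in C134W than in EV and higher than in WT. COL4A1 (chr13:110148963-110307157), the alpha-1 chain present in all basement membranes, had implied levels of 19246 in EV, 19629 in WT and 19102 in C134W without TGF and of 54872, 57080 and 53304 with it. None of its 4 HGrC1 comparisons passed in the authors' deposited tables, the values running from -0.10 ± 0.06 (WT with TGF, adjusted p = 0.177) to -0.01 ± 0.06 (EV without TGF, adjusted p = 0.927). Relative to the long mRNAs, COL4A1 was lower than in WT without TGF (-0.26, adjusted p = 1.62e-18) and with it (-0.27, adjusted p = 6.89e-06). Its partner COL4A2 (chr13:110307284-110513209) was at 17132, 14646 and 17130 without TGF and at 36923, 29802 and 36493 with TGF, so that WT was lowest in both states. In the authors' deposited tables COL4A2 was higher in C134W than in WT by 0.22 ± 0.03 without TGF (adjusted p = 1.73e-11) and 0.29 ± 0.07 with it (adjusted p = 0.000192). It was -0.00 ± 0.08 and -0.02 ± 0.05 against EV (adjusted p = 0.999 and 0.836) in the same tables. Relative to the long mRNAs, COL4A2 against WT was 0.00 without TGF and 0.11 with TGF, neither of which passed (adjusted p = 0.904 and 0.187). Against EV with TGF both genes turned from just below to above 0, with COL4A1 at 0.16 (adjusted p = 0.00216) and COL4A2 at 0.19 (adjusted p = 0.000855).

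The X-linked pair COL4A5 (chrX:108439838-108697545) and COL4A6 (chrX:108155614-108439458) encodes chains of more specialised basement membranes. COL4A5 had implied levels of 1089 in EV, 529.9 in WT and 864.5 in C134W without TGF and of 1156, 439.6 and 698.3 with TGF. COL4A6 was at 399.97, 153 and 291.9 without TGF and at 353.7, 110.4 and 183.5 with it. Both genes had the same order in both states, with EV highest, C134W between and WT lowest. In the authors' deposited tables C134W was higher than WT for COL4A5 by 0.67 ± 0.07 without TGF and 0.65 ± 0.09 with it (adjusted p = 3.01e-20 and 1.02e-10). For COL4A6 it was higher by 0.80 ± 0.11 and 0.68 ± 0.15 (adjusted p = 2.49e-12 and 2.79e-05). C134W was lower than EV for COL4A5 (-0.33 ± 0.08 and -0.73 ± 0.08, adjusted p = 0.000466 and 8.98e-21) and for COL4A6 (-0.44 ± 0.11 and -0.94 ± 0.11, adjusted p = 0.000406 and 9.56e-16) in the authors' deposited tables. Within this X-linked pair, the log2 fold change of COL4A6 less that of COL4A5 ran from -0.21 ± 0.14 to 0.13 ± 0.13 over the 4 HGrC1 comparisons. Within the head-to-head pair on chromosome 13, COL4A1 less COL4A2 was -0.26 ± 0.04 and -0.39 ± 0.09 against WT, without and with TGF, and -0.01 ± 0.10 and -0.03 ± 0.07 against EV. The members of a pair were read in the same libraries, so these gaps were not tested.

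In KGN all 5 basement membrane genes tested passed, 2 higher and 3 lower (23.5% and 23.3% of all genes). COL4A1 was higher with TGF by 1.90 ± 0.05 (adjusted p = 9.49e-282; implied 8919 to 33493) and COL4A2 by 0.99 ± 0.06 (adjusted p = 3.18e-61; 16632 to 33243) in the authors' deposited table. COL4A5 fell by 1.10 ± 0.14 (adjusted p = 4.81e-15; 788.6 to 359) and COL4A6 fell by 1.49 ± 0.18 (adjusted p = 1.37e-15; 123 to 41.5) in the same authors' deposited table. COL4A4, a chain of the kidney and ear basement membrane, fell by 0.47 ± 0.16 (adjusted p = 0.0123) from a mean of 123.5, against means of 2.22 to 8.91 in HGrC1, in the authors' deposited tables. Its neighbour COL4A3 was at 3.92 in KGN and was not described further.

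Among FACIT genes, COL12A1 was higher in C134W in all 4 HGrC1 comparisons and COL16A1 had the lowest fold change of the 30 genes in any table. FACIT counts against WT were 1 higher of 4 tested without TGF (10.9% of all genes), and 2 higher and 1 lower of 5 with it (19.0% and 19.3%). Against EV they were 1 and 1 of 4 without TGF (14.1% and 12.4%), and 2 and 1 of 5 with it (25.6% and 23.1%). Counts this small cannot be judged against the shares of all genes. COL12A1 (chr6:75084326-75206053), which decorates type I fibrils in tissue under strain, was at 4797 in EV, 3436 in WT and 5757 in C134W without TGF, and at 3376, 3743 and 10671 with TGF. C134W was the highest group in both states, and with TGF the other groups lay close together. It was 0.73 ± 0.04 against WT and 0.26 ± 0.07 against EV without TGF (adjusted p = 7.88e-74 and 0.00127) in the authors' deposited tables. With TGF it was 1.49 ± 0.07 and 1.65 ± 0.07 (adjusted p = 7.73e-95 and 5.49e-133), in the authors' deposited tables. In KGN, COL12A1 was 0.87 ± 0.08 (adjusted p = 1.86e-26; 10521 to 19403) in the authors' deposited table.

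COL16A1 (chr1:31652263-31704017), a FACIT of fibrils near basement membranes, was at 305 in EV, 231.2 in WT and 217.9 in C134W without TGF and at 2817, 537.5 and 441.3 with TGF. The EV group with TGF stood far above all others. In the authors' deposited tables COL16A1 was -0.46 ± 0.14 against EV without TGF (adjusted p = 0.00447) and -2.65 ± 0.07 with it, where the adjusted p is listed as 0. Against WT it was -0.07 ± 0.10 without TGF (adjusted p = 0.685) and -0.28 ± 0.10 with it (adjusted p = 0.0186), and relative to the long mRNAs the first also passed at -0.29 (adjusted p = 0.0114).

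The type IX genes, known from cartilage, were low. COL9A2 (chr1:40300489-40317286; means of 15.3 to 36.6 in HGrC1 and 1.69 in KGN) was higher in C134W than in WT with TGF by 1.39 ± 0.27 (adjusted p = 3.08e-06) and than in EV with TGF by 0.65 ± 0.28 (adjusted p = 0.0489) in the authors' deposited tables. The second value did not pass once fold changes were centred on the median of all genes (adjusted p = 0.0595). COL9A1 and COL9A3 passed no HGrC1 test, and in KGN COL9A1 was 0.57 ± 0.19 (adjusted p = 0.0101) and COL9A3 was -0.64 ± 0.18 (adjusted p = 0.00157) in the authors' deposited table. COL21A1, a FACIT with a mean of 16.2 in KGN and at most 3.10 in HGrC1, was 0.81 ± 0.24 in KGN (adjusted p = 0.00282) in the authors' deposited table.

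Type VI collagen, which forms beaded filaments around cells, was low in HGrC1. Of its 7 tests against EV over both TGF states, 5 were higher in C134W. Among all genes 14.1% were higher without TGF and 25.6% with it. COL6A1, COL6A2 and COL6A3 were each tested in both states, so the 7 tests are not 7 genes. COL6A6, kept without TGF, was -0.12 ± 0.30 against EV (adjusted p = 0.839) and in KGN -0.34 ± 0.31 (adjusted p = 0.42) in the authors' deposited tables. COL6A1 (chr21:45981770-46005048) was at 105 in EV, 196.1 in WT and 236.8 in C134W without TGF and at 82.3, 169.5 and 167.4 with it. EV was the lowest group in both states. The authors' deposited tables give it as 1.09 ± 0.15 and 1.00 ± 0.15 against EV without and with TGF (adjusted p = 1.65e-11 and 4.26e-10), and it did not pass against WT (0.23 ± 0.11 and -0.02 ± 0.14, adjusted p = 0.125 and 0.948). COL6A2 (chr21:46098112-46132848) was higher in C134W in all 4 comparisons. The gap was 0.56 ± 0.13 and 0.66 ± 0.17 against WT (adjusted p = 0.000208 and 0.000386) and 1.00 ± 0.19 and 0.80 ± 0.17 against EV (adjusted p = 1.63e-06 and 1.07e-05), without and with TGF, in the authors' deposited tables. COL6A3 (chr2:237324018-237414164; means of 26.2 to 61.5) passed in 1 of the 4, at 2.46 ± 0.29 against EV without TGF (adjusted p = 2.75e-16) in the authors' deposited tables, where with TGF it was 0.34 ± 0.24 (adjusted p = 0.263). With TGF, relative to the long mRNAs, it passed at 0.54 against EV (adjusted p = 0.0474) and at -0.59 against WT (adjusted p = 0.011).

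In KGN the chains COL6A1, COL6A2 and COL6A3 had means of 4706, 5306 and 585.3, against at most 216.4, 135.9 and 61.5 in HGrC1. These 3 were lower with TGF in the authors' deposited table, COL6A1 by -0.69 ± 0.05 (adjusted p = 2.29e-42; 5689 to 3526), COL6A2 by -0.58 ± 0.07 (adjusted p = 4.63e-14; 6252 to 4171) and COL6A3 by -1.72 ± 0.31 (adjusted p = 1.86e-07; 897.5 to 210.7). The difference between the KGN and HGrC1 comparisons was not tested.

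COL8A1 (chr3:99638594-99799217), the network collagen of vessel walls and the corneal membrane, stood out by its level in WT. It was at 154 in EV, 788 in WT and 503.3 in C134W without TGF and at 100.2, 682.4 and 173.9 with TGF. In both states the order was WT, C134W, EV. The authors' deposited tables give COL8A1 as -0.61 ± 0.07 and -1.91 ± 0.10 against WT (adjusted p = 4.3e-15 and 9.96e-72) and 1.64 ± 0.12 and 0.77 ± 0.15 against EV (adjusted p = 5.19e-38 and 9.25e-07), without and with TGF. In KGN it was -0.29 ± 0.12 (adjusted p = 0.0459), which relative to the long mRNAs was -0.22 and did not pass (adjusted p = 0.151). Its partner COL8A2 (means of 80.3 to 124 in HGrC1) passed in 1 of the HGrC1 comparisons, at 0.82 ± 0.18 against WT with TGF (adjusted p = 3.9e-05), and at 0.38 ± 0.16 against EV with TGF lay just outside the threshold of 0.05 in the authors' deposited tables. Relative to the long mRNAs the latter passed at 0.58 (adjusted p = 0.0012).

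COL7A1 (chr3:48564073-48595329), which anchors basement membranes to the stroma, was at 172.8 in EV, 251.1 in WT and 208.1 in C134W without TGF and at 1410, 771.5 and 1052 with TGF. Without TGF no difference passed the authors' test (-0.23 ± 0.10 against WT, adjusted p = 0.0934; 0.24 ± 0.15 against EV, adjusted p = 0.275) in the authors' deposited tables. With TGF C134W lay above WT (0.44 ± 0.09, adjusted p = 6.64e-06) and below EV (-0.41 ± 0.08, adjusted p = 1.15e-06) in the authors' deposited tables. Relative to the long mRNAs it was also lower than WT without TGF (-0.45, adjusted p = 6.2e-05). In KGN it was 0.59 ± 0.16 (adjusted p = 0.000829) from a mean of 47.6 in the authors' deposited table.

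COL18A1 (chr21:45405165-45513720), a basement membrane proteoglycan collagen and the source of endostatin, was at 3562, 3049 and 2923 in EV, WT and C134W without TGF and at 6553, 3127 and 2915 with it. The EV group with TGF was again the highest, and the other 5 lay within a narrow range. In the authors' deposited tables it was -1.16 ± 0.07 against EV with TGF (adjusted p = 4.03e-53), -0.24 ± 0.21 without (adjusted p = 0.451), -0.06 ± 0.05 and -0.10 ± 0.08 against WT (adjusted p = 0.427 and 0.396) and -0.51 ± 0.06 in KGN (adjusted p = 7.14e-17). Relative to the long mRNAs it was lower than in WT without TGF (-0.28, adjusted p = 3.87e-08) and with it (-0.28, adjusted p = 0.00342).

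The membrane-spanning COL13A1 was 1.46 ± 0.29 against EV without TGF (adjusted p = 6.8e-06; mean 18.7) and -1.39 ± 0.30 in KGN (adjusted p = 1.64e-05; mean 48.7) in the authors' deposited tables. COL25A1, a membrane-spanning collagen known from the nervous system and muscle, had the highest fold change of a collagen in KGN, 2.96 ± 0.26 (adjusted p = 4.74e-28), from an implied 4.31 normalized counts without TGF to 44.3 with it in the authors' deposited table. Its mean in HGrC1 was at most 0.40. COL15A1, related to COL18A1, was -0.79 ± 0.22 in KGN (adjusted p = 0.00171; mean 76.5) and had a mean of at most 2.34 in HGrC1 in the authors' deposited tables. COL25A1, COL15A1, COL21A1 and COL4A4 reached a mean of 10 in KGN alone, and COL2A1, COL8A2, COL9A2 and COL11A2 did so in HGrC1 and not in KGN.

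Near the minimum of 10, the lowest genes kept were COL9A1 at 10.2 (C134W and WT without TGF), COL13A1 at 10.5 (C134W and WT with TGF), COL2A1 at 10.7 and COL6A6 at 11.3 (EV tables with and without TGF), and among the highest left out were COL1A2 at 9.75, COL14A1 at 9.41 (KGN) and COL4A4 at 8.91. COL2A1, COL11A2 and COL6A6 passed no test where they were kept. The 14 genes below 10 in every table were COL4A3, COL5A3, COL6A5, COL10A1, COL11A1, COL14A1, COL17A1, COL19A1, COL20A1, COL22A1, COL23A1, COL24A1, COL26A1 and COL28A1.

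Whether the difference of C134W from another line changed with TGF was put to a two-sided z test of the fold change with TGF minus that without, with Benjamini-Hochberg adjustment over 17972 genes (WT) and 17969 genes (EV). Against EV, 11 of 20 collagen genes were more negative with TGF and 1 was more positive, where 8.81% and 9.00% of all genes with a mean of at least 10 in both tables were. The median difference was -0.45. Of the 11, COL4A5 (-0.40 ± 0.11, adjusted p = 0.0045) and COL4A6 (-0.50 ± 0.16, adjusted p = 0.0139) did not pass relative to the long mRNAs (adjusted p = 0.171 and 0.145). COL16A1 changed by -2.19 ± 0.15 (adjusted p = 2.34e-43) and COL6A3, at low counts, by -2.12 ± 0.37 (adjusted p = 3.76e-07), followed in the fibrillar class by COL1A1 at -1.43 ± 0.11 (adjusted p = 3.2e-38), COL5A2 at -1.34 ± 0.08 (adjusted p = 6.71e-56) and COL5A1 at -1.26 ± 0.11 (adjusted p = 3.48e-27). The more positive gene was COL12A1, at 1.39 ± 0.10 (adjusted p = 1.3e-44). For COL1A1, COL3A1 and COL5A2 the differences without and with TGF had opposite signs and each passed its own test.

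Against WT, 3 of 22 were more positive with TGF and 4 more negative, against 5.49% and 6.52% of all genes, and the median difference was -0.05. The 3 were COL12A1 (0.76 ± 0.08, adjusted p = 2.44e-18), COL7A1 (0.67 ± 0.14, adjusted p = 3.31e-05) and COL9A2 (1.18 ± 0.31, adjusted p = 0.00268), which no longer passed with the prior of the fold changes undone (1.35 ± 0.60, adjusted p = 0.201). The 4 were COL8A1 (-1.30 ± 0.13, adjusted p = 5.83e-22), COL5A1 (-0.58 ± 0.08, adjusted p = 6.81e-12), COL3A1 (-0.49 ± 0.06, adjusted p = 2.78e-16) and COL5A2 (-0.47 ± 0.08, adjusted p = 6.48e-08). COL4A1 and COL4A2 did not pass against either line, with differences of -0.06 ± 0.06 and 0.06 ± 0.08 against WT and of -0.03 ± 0.07 and -0.02 ± 0.10 against EV (adjusted p = 0.770 and 0.800, and 0.897 and 0.961).

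**Figure D4:**
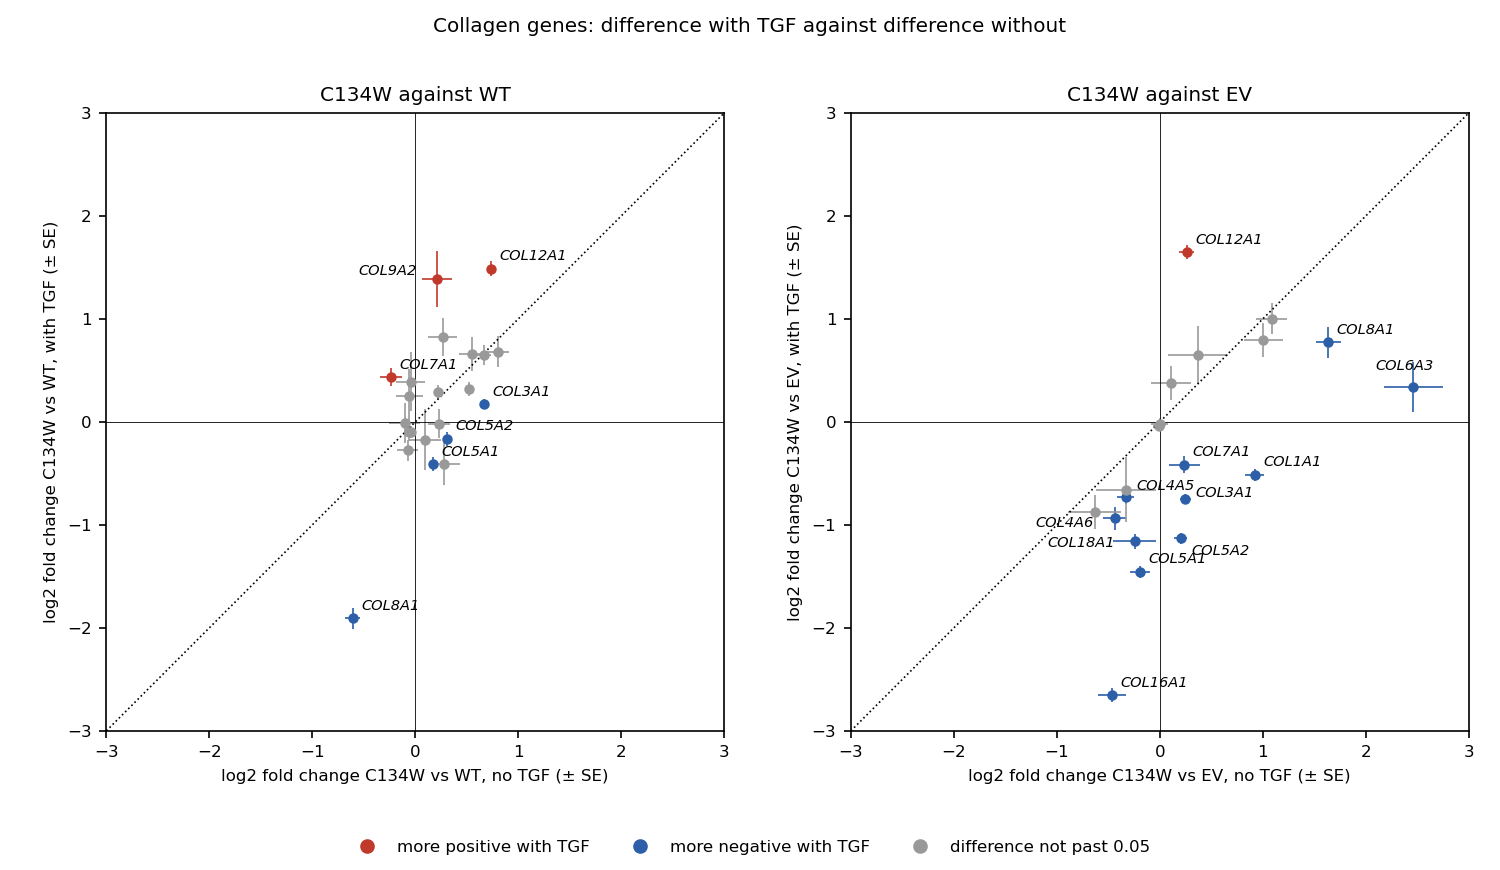
Log2 fold change of C134W against WT (left) and against EV (right) for each collagen gene, without TGF on the x axis and with TGF on the y axis, with standard errors; colored points passed the z test of the difference (adjusted p under 0.05), and the dotted line marks equal values. Against EV, 11 genes lie below the line and COL12A1 lies above it.

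Stroma and theca markers moved in both directions against EV. Of 7 stroma and theca markers tested against EV with TGF, 2 were higher and 3 lower in C134W (25.6% and 23.1% of all genes). The lower ones were the fibril-binding proteoglycan lumican (LUM, -2.93 ± 0.08, adjusted p = 8.19e-278), decorin (DCN, -2.88 ± 0.24, adjusted p = 1.49e-30) and PDGFRB (-2.16 ± 0.07, adjusted p = 3.63e-203) in the authors' deposited table. The higher ones were PDGFRA (2.98 ± 0.39, adjusted p = 1.56e-13) and NR2F2 (0.54 ± 0.06, adjusted p = 3.04e-18). Against EV without TGF 1 of 6 was higher and 2 lower (14.1% and 12.4% of all genes), with LUM at -2.14 ± 0.08 (adjusted p = 1.4e-155) and DCN at -2.43 ± 0.20 (adjusted p = 1.6e-32) in the authors' deposited table, where 3 of 5 fibrillar collagens were higher. The summed mean of the list was 3872 to 5924 in the HGrC1 tables and 10791 in KGN, and FAP was at 0 in all HGrC1 tables. Their part in the collagen differences was not tested, and in bulk RNA fewer cells of a type cannot be told apart from less RNA per cell.

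Genes that modify, secrete and cross-link collagen were called in both directions in every comparison. Their relation to the collagen differences was not tested. Of 39 listed, 32 were tested against WT. Without TGF 8 were higher and 8 lower (10.9% and 11.5% of all genes), and with it 6 and 15 (19.0% and 19.3%). Against EV 10 of 32 were higher and 4 lower without TGF (14.1% and 12.4% of all genes), and 13 and 10 of 33 with it (25.6% and 23.1%). In KGN 16 of 32 were higher and 5 lower (23.5% and 23.3%). LOX, which cross-links collagen and elastin, was higher in C134W than in EV by 1.61 ± 0.08 without TGF (adjusted p = 2.03e-85) and 1.13 ± 0.06 with it (adjusted p = 1.28e-87), and higher with TGF in KGN by 1.10 ± 0.10 (adjusted p = 1.42e-28), in the authors' deposited tables. Against WT without TGF it was lower (-0.20 ± 0.05, adjusted p = 0.000356). Its relative LOXL2 was 0.59 ± 0.03 against WT without TGF (adjusted p = 8.35e-71), 0.62 ± 0.07 and 0.84 ± 0.05 against EV (adjusted p = 1.95e-17 and 1.32e-52) and -0.95 ± 0.05 in KGN (adjusted p = 3.67e-70). LOXL4 was lower against WT with TGF (-0.95 ± 0.15, adjusted p = 9.7e-10), against EV with TGF (-1.67 ± 0.13, adjusted p = 1.19e-37) and in KGN (-2.02 ± 0.21, adjusted p = 7.22e-20) in the authors' deposited tables. The lysyl hydroxylase PLOD1 was -0.35 ± 0.05 and -0.72 ± 0.07 against WT (adjusted p = 1.87e-11 and 2.11e-20), and TLL1, a protease that trims procollagen, was -1.08 ± 0.10 against WT with TGF (adjusted p = 4.95e-23) in the authors' deposited tables. SERPINH1, the collagen chaperone, was 0.78 ± 0.09 against EV without TGF (adjusted p = 8.25e-16), and PLOD2 was 1.04 ± 0.09 in KGN (adjusted p = 5.18e-28) in the authors' deposited tables.

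Of 13 listed receptors for collagen, 8 were tested in each table. Of these 6 were higher and none lower in C134W than in WT without TGF, 3 and 2 with TGF, 5 and 1 against EV without TGF, 5 and 3 with it, and 3 and 3 in KGN. Among all genes 10.9% were higher and 11.5% lower than in WT without TGF, 19.0% and 19.3% with it, 14.1% and 12.4% against EV without TGF, 25.6% and 23.1% with it, and 23.5% and 23.3% in KGN. ITGA1, the integrin chain that prefers type IV collagen, was higher in all 5 comparisons. The gap was 0.55 ± 0.06 and 1.31 ± 0.07 against WT (adjusted p = 2.02e-17 and 4.05e-85), 1.91 ± 0.09 (adjusted p = 1.1e-94) and 2.98 ± 0.07 (listed as 0) against EV and 1.11 ± 0.05 in KGN (adjusted p = 1.41e-97) in the authors' deposited tables. ITGA11, a receptor for type I collagen, was 3.04 ± 0.28 and 2.60 ± 0.13 against EV (adjusted p = 2.98e-25 and 5.02e-81), and the endocytic receptor MRC2 was 1.87 ± 0.09 and 0.57 ± 0.07 (adjusted p = 6.08e-104 and 4.27e-16) in the authors' deposited tables. GPR56, a receptor for type III collagen, was -2.82 ± 0.08 against EV with TGF (adjusted p = 5.25e-281) and -0.70 ± 0.11 against WT with TGF (adjusted p = 8.25e-10) in the authors' deposited tables.

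The laminins, nidogens and other partners of type IV collagen in basement membranes were mostly lower with TGF in KGN (2 of 14 higher and 11 lower, with 23.5% and 23.3% of all genes). Against WT 6 of 14 were higher and 2 lower without TGF (10.9% and 11.5% of all genes), and 4 of 15 higher and 3 lower with it, near the 19.0% and 19.3% of all genes. Against EV they were 3 and 5 of 14 without TGF (14.1% and 12.4%) and 3 and 6 of 14 with it (25.6% and 23.1%). LAMA5, a laminin chain, was 0.78 ± 0.04 and 1.16 ± 0.16 against WT (adjusted p = 2.25e-68 and 2.22e-11) in the authors' deposited tables. NID1, which links laminin to type IV collagen, was 1.17 ± 0.07 and 0.86 ± 0.07 against EV (adjusted p = 1.43e-56 and 2.17e-36) in the authors' deposited tables. In KGN, LAMA4 was -1.51 ± 0.08 (adjusted p = 1.44e-86) and LAMA3 was -1.43 ± 0.13 (adjusted p = 1.31e-25), whereas PXDN, which cross-links type IV collagen, was 0.44 ± 0.06 (adjusted p = 4.19e-13) in the authors' deposited table.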

How the data were processed

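RNA of 27 libraries by the labels, in 8 groups, was used through 5 result tables, of which that of KGN behaved as 11 libraries. The other 78 of 105 samples (chromatin immunoprecipitation and inputs) were not analysed here. Trimmomatic 0.36.0, Bowtie2, HTSeq 0.6.1, DESeq2 and the build hg38 are listed, without their roles, per the submitters' processing notes, and libraries were made with a TruSeq kit per the labels' protocols. The sources used here name neither the annotation nor the DESeq2 version of the authors nor the strand setting of the counting, so antisense reads cannot be told apart. The tables deposited by the authors give a mean of normalized counts, a signal over both groups, per gene. They deposited a log2 fold change with its standard error and a Wald statistic, a score equal to their ratio. They deposited a p-value and a Benjamini-Hochberg adjusted p-value, and a missing one was kept missing.

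Each comparison used the Wald test of DESeq2 as the authors deposited it, with a threshold of 0.05 on the adjusted p. The deposited log2 fold changes were moderated towards 0 by a normal prior, which was undone (its width read from each table's largest standard error) only to compute group levels and as an alternative. Levels follow from the mean and the fold change, and the HGrC1 tables were put on 1 scale through C134W, by the median ratio of its levels in 9194 genes whose mean was 100 or more. The 2 readings of the C134W level differed by a ratio of 0.990 to 1.008. The z test was checked on simulated fold changes without the prior. That check does not cover the moderated values that were tested. Depth was estimated from the means of genes with 1 read. The software was scipy 1.17.1, pandas 2.3.3, numpy 2.4.6 and matplotlib 3.10.9 under Python 3.11.15.

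Genes could be named if they matched the symbol rule with a mean of at least 10, and of the other lists the 3 highest and 3 lowest called fold changes per table, plus FOXL2, and a result that the rule names is not reported here. FSHR, NR5A1, TCF21 and FAP, named with their levels to check the labelled cell type, fall outside this rule and were chosen after their values were seen. Members and lists were chosen with earlier results of these data known. Levels per length were not computed. Alternatives were a threshold of 0.01, a minimum mean of 50 or none, the prior undone, centring on all genes or on long mRNAs, and a scale from genes with a mean of at least 500.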

Additional observations from a re-analysis of the deposited data

Results flagged for a closer look

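The difference of C134W from another line changed with TGF for 19 pairs of a collagen gene and a line. The test was the z test described in the report (log2 fold change with TGF minus that without, Benjamini-Hochberg adjusted over all genes). Against WT 3 of 22 genes were more positive and 4 more negative (5.49% and 6.52% of all genes). Against EV 1 of 20 was more positive and 11 more negative (9.00% and 8.81% of all genes). Both sets use the same C134W libraries, so a gene flagged against both lines is not 2 separate results. Against WT the changes were COL3A1 -0.492, COL5A1 -0.577, COL5A2 -0.471, COL7A1 0.672, COL8A1 -1.299, COL9A2 1.177 and COL12A1 0.757. For COL5A1 the difference from WT had opposite signs in the 2 states and passed in each.

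Against EV the changes were COL1A1 -1.434, COL3A1 -0.992, COL4A5 -0.396, COL4A6 -0.497, COL5A1 -1.262, COL5A2 -1.337, COL6A3 -2.125, COL7A1 -0.655, COL8A1 -0.863, COL12A1 1.391, COL16A1 -2.186 and COL18A1 -0.915. COL1A1, COL3A1 and COL5A2 had opposite signs that passed in each state. COL4A5 and COL4A6 did not pass relative to the long mRNAs, nor did COL9A2 against WT with the prior undone. COL6A3 rests on means of 26.2 and 52.7 normalized counts. COL12A1 was the collagen gene more positive with TGF against both lines.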

How the results depend on the processing

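Centring on the median of 56 long mRNAs, chosen after seeing the data, moved 3 counts: lower than WT from 3 to 7 with TGF and from 1 to 5 without, and higher than EV with TGF from 5 to 10. It turned COL3A1 against WT with TGF to -0.0003223 (adjusted p = 0.997), COL5A1 against WT without TGF to -0.0504 (adjusted p = 0.198), and COL4A1 and COL4A2 against EV with TGF to 0.161 and 0.186. It ended the changes with TGF against EV of COL4A5 (-0.22, adjusted p = 0.171) and COL4A6 (-0.32, adjusted p = 0.145). The median was subtracted as a fixed value, without an error of its own. The shares of all genes called under this centring were not computed, so the 3 moved counts cannot be judged against them. A minimum mean of 50 took the count higher in KGN from 9 to 5. With the prior undone, COL9A2 against WT changed with TGF by 1.35 ± 0.60 (adjusted p = 0.201). Centring on all genes ended 1 call (COL9A2 against EV with TGF) and left 158 other single values on their side of the threshold. Every other alternative that was run kept the counts within 1.5 times. No paired analysis was possible because the tables hold no values per library, and for the same reason leaving out single libraries was not run. A single value per group, 3 libraries in each HGrC1 group and means near 10 for type IX and other low genes limit the precision.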
